A study of Homo sapiens with 4 samples.

Results

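FOXC1 belongs to the forkhead transcription factors, and its own gene lies in a cluster of forkhead genes on the short arm of chromosome 6, in band 6p25. To find where FOXC1 itself bound around this cluster, the FOXC1 chromatin immunoprecipitation with sequencing (ChIP-seq) peaks of J82, an established human bladder cancer cell line, were taken around 4 genes, namely FOXC1, FOXQ1, FOXF2 and GMDS. A peak was counted when its summit, the base with the highest read pileup, lay in the gene body or within 100 kb of it on the hg19 (GRCh37) genome build. By this rule 23 of 22405 peaks in replicate 1 and 36 of 41789 peaks in replicate 2 were counted, and 14 regions were found in both replicates, out of 13238 such shared regions in the genome. The rule used only position, so the strength, the overlap and the sequence of these peaks were not chosen by it.

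The study performed the ChIP on J82 cells as grown in culture, with 2 biological replicates and the anti-FOXC1 antibody D8A6, and it sequenced 2 input libraries, which are chromatin without antibody, as the background for peak calling. None of the ChIP samples used here came from treated or FOXC1-deficient cells. Each FOXC1 ChIP replicate had its own peak list, and the input libraries entered only through the background that the peak caller had used. All samples came from 1 cell line, so the replicates show the spread between ChIP experiments and not the spread between tumours.

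Forkhead proteins bind DNA through a winged-helix domain that reads a short core sequence, and many of them are regulators of development. FOXC1 acts in the development of the eye, the heart and the mesenchyme, FOXF2 in mesenchyme next to epithelium, and FOXQ1 in epithelial cells, while GMDS encodes GDP-mannose 4,6-dehydratase, an enzyme of GDP-fucose synthesis, and is not a forkhead gene. A transcription factor that binds near its own gene can raise or lower its own transcription, which is called autoregulation. Peaks near FOXC1 mark positions where such regulation could be looked for, and no expression was measured here, so an effect on FOXC1 transcription was not tested.

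The genes lie in the order FOXQ1, FOXF2, FOXC1 and GMDS. FOXQ1 (ENSG00000164379) was annotated at chr6:1312333-1314993 and FOXF2 (ENSG00000137273) at chr6:1389811-1395838, both on the plus strand. FOXC1 (ENSG00000054598) was at chr6:1610150-1614132, also on the plus strand. GMDS (ENSG00000112699) spanned 621.8 kb at chr6:1624041-2245839 on the minus strand, so that its 3′ end points towards FOXC1. The windows of these genes overlap and together cover 1119.2 kb, with a gap of 14.3 kb between those of FOXF2 and FOXC1. A region was named by its distance from the start of the nearest member gene whose window held it, minus for upstream and plus for downstream in the direction of transcription.

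The sequences below carry the results that follow. The summit of a shared region is the point midway between the summits of its peaks in the replicates. Each shows the plus strand of GRCh37, 101 bases centred on the summit of a shared region, and the capitals mark a forkhead core (GTAAACA or GTAAATA or ATAAACA or ATAAATA, read on either strand, so that TATTTAC and TGTTTAC and TGTTTAT are such cores on the other strand) or an extended forkhead element, a longer form in which CCAA stands before a looser core. The first set is shown because it holds the regions of the FOXC1 window outside the gene, at chr6:1598263-1598363, chr6:1607838-1607938 and chr6:1671609-1671709.

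FOXC1 −11.8 kb: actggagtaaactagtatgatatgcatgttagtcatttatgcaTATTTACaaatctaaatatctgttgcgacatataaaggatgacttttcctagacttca

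FOXC1 −2.3 kb: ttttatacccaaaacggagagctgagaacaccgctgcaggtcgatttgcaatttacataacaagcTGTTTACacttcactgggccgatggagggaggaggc

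FOXC1 +61.5 kb: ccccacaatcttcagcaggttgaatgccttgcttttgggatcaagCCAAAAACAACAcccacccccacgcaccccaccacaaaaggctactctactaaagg

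The region in the 3′ untranslated part of FOXC1 is shown by its core and the bases around it alone, 27 bases at chr6:1613859-1613885.

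FOXC1 +3.7 kb: tcccccttttGTAAATAacccaggaaa

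The second set is shown because it holds the region at the FOXQ1 start and the strongest regions around FOXF2, at chr6:1312081-1312181, chr6:1397262-1397362 and chr6:1477817-1477917.

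FOXQ1 −0.2 kb: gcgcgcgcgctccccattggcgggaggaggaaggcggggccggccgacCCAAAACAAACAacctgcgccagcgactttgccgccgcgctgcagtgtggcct

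FOXF2 +7.5 kb: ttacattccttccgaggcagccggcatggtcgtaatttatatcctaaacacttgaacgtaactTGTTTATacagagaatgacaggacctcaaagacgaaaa

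FOXF2 +88.1 kb: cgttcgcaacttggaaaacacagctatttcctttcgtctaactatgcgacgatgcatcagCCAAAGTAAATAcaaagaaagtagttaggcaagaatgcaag

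At the FOXC1 gene itself, no peak of either replicate had its summit within 2 kb of the start. The window of FOXC1 held 8 peaks in replicate 1 and 9 in replicate 2, and 4 of the regions were shared. Of these, 2 lay upstream, 1 in the 3′ untranslated part of the gene and 1 far downstream, inside an intron of GMDS. The strongest were the pair outside the gene, at −11.8 kb and +61.5 kb, and the weakest was the one within it. Values are given below as the fold enrichment that the peak caller reported for the summit, the pileup over the local background with 1 added to each, and as whole reads over the summit recovered from the same files.

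The FOXC1 −11.8 kb region, chr6:1598046-1598827, lay between genes, 3576 bp before the start of FOXCUT, a long non-coding RNA gene next to FOXC1. Its fold enrichment was 5.70 in replicate 1 and 8.93 in replicate 2, a mean of 7.31 ± 2.28 (SD, n = 2). The reads over its summit numbered 38 in replicate 1, with a 95% Poisson interval of 26.9 to 52.2, and 68 in replicate 2, with an interval of 52.8 to 86.2. The local background predicted 5.84 and 6.64 reads, and both intervals lay above it, as peak calling against that background selects for. The summits of the replicates were 3 bp apart, and the −log10 q was 15.3 and 36.3. The core in the sequence above was centred 4 bp from the summit, in a stretch of 30.7% GC, which 10.5% of all shared regions matched or fell below.

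The FOXC1 −2.3 kb region, chr6:1607604-1608165, was the nearest shared region to the FOXC1 start, 2.26 kb upstream of it, between FOXCUT and FOXC1. Its fold enrichment was 3.46 and 5.14, a mean of 4.30 ± 1.19 (SD, n = 2). It held 22 reads in replicate 1 (95% Poisson interval 13.8 to 33.3) and 33 in replicate 2 (22.7 to 46.3), against 5.65 and 5.53 expected from the background. Both replicates stood above their background, but their summits were 95 bp apart, where the median over all shared regions was 28 bp. The core TGTTTAC lay 18 bp from the point midway between them. By −log10 q, which was 4.25 and 10.5, this region passed a limit of 5 in replicate 2 alone.

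The FOXC1 +3.7 kb region, chr6:1613664-1614089, lay in the 3′ untranslated part of FOXC1 and was the only shared region in the body of any of the 3 forkhead genes. Its fold enrichment was 2.74 in replicate 1 and 2.02 in replicate 2, a mean of 2.38 ± 0.50 (SD, n = 2). The reads over its summit were 19 (95% Poisson interval 11.4 to 29.7) and 28 (18.6 to 40.5). The expected reads were 6.31 in replicate 1 and 13.3 in replicate 2, and the higher background of replicate 2 moved with its lower fold enrichment. In replicate 2 the −log10 q was 1.09, a q-value above 0.05, and 99.1% of all shared regions ranked as high or higher than this one. A second peak in the 3′ untranslated part, chr6:1612414-1612853, was listed in replicate 2 only, with a fold enrichment of 2.82, 27 reads and a −log10 q of 3.27, and it held no forkhead core within 50 bp.

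The FOXC1 +61.5 kb region, chr6:1671274-1671966, lay in an intron in the 3′ part of GMDS. Its fold enrichment was 11.002 and 13.3, a mean of 12.1 ± 1.60 (SD, n = 2), the highest in the FOXC1 window in both replicates. It held 74 reads in replicate 1 (95% Poisson interval 58.1 to 92.9) and 175 in replicate 2 (150.03 to 202.9), where 5.82 and 12.2 were expected. Relative to the genome-wide level, the background here was 1.40 times in replicate 1 and 2.93 times in replicate 2, so the replicate with more reads over the summit also had the higher background. The region ranked 867 of the 13238 shared regions by the worse of its ranks by p-value, the best of the 14. None of the 4 cores lay within 50 bp of its summit, and the extended element CCAAAAACAACA was centred 1 bp from it.

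The other peaks of the FOXC1 window were in 1 replicate each and had lower fold enrichments than the shared regions at −11.8 kb and +61.5 kb, though several exceeded the shared +3.7 kb region. In replicate 1 there were 4 of them, with fold enrichments from 2.19 to 2.94. In replicate 2 there were 5, from 1.93 to 3.47, and their reads over the summit ran from 16 to 27. None of these reached a −log10 q of 5. One of them, singled out after its values were seen, lay 339 bp from the start of FOXCUT with a fold enrichment of 1.93 and a −log10 q of 0.088. Counted by gene, the starts in the window beside FOXC1 and FOXCUT were those of ENSG00000218027, a processed pseudogene, and ENSG00000272279, a long non-coding RNA gene. By transcript, GMDS also has a start there.

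**Figure D1:**
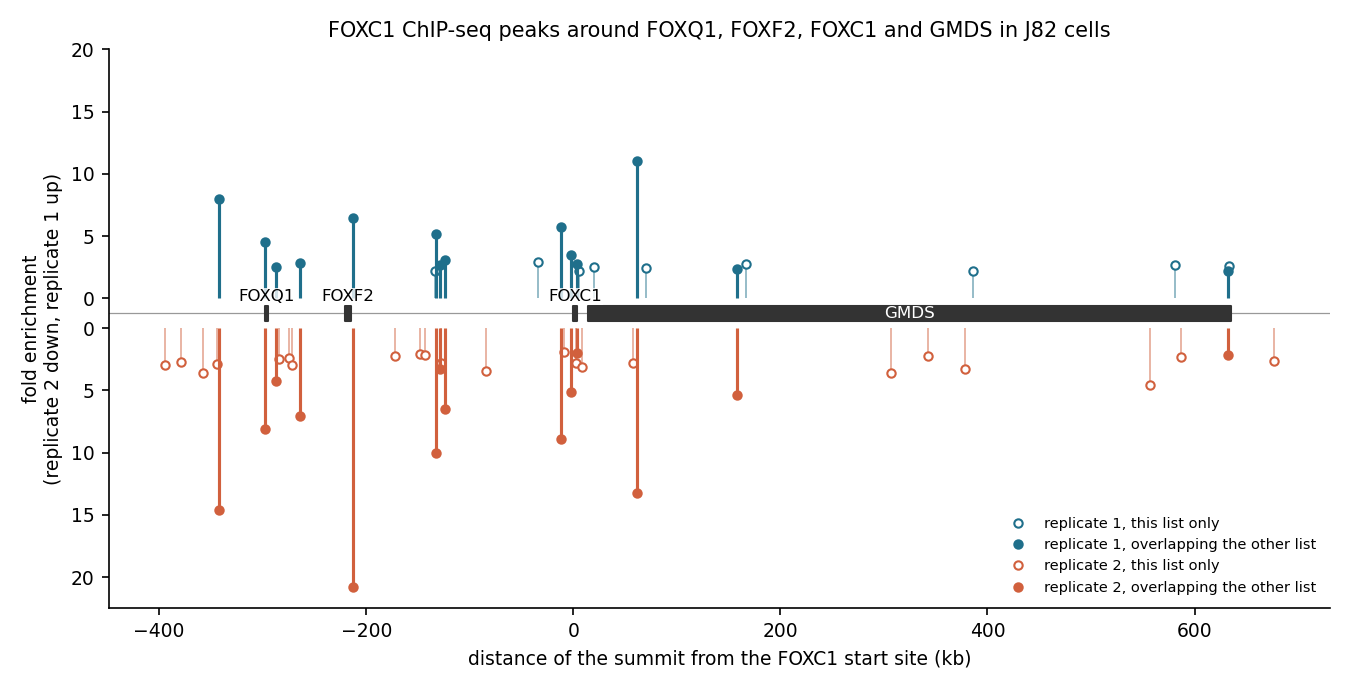
Every peak of the 4 windows is drawn at its distance from the FOXC1 start in kb, with fold enrichment upwards for replicate 1 and downwards for replicate 2, filled circles for peaks that overlap the other list and black bars for gene bodies. The tallest filled circles stand outside the gene bodies of FOXC1, FOXQ1 and FOXF2, up to 11.002 in replicate 1 and 20.8 in replicate 2, while the peaks of 1 replicate alone stay at or under 4.55.

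Around FOXQ1 and FOXF2 there were more replicate 2 peaks and more shared regions than around FOXC1, but no more peaks in replicate 1, and all of them lay outside the bodies of FOXQ1 and FOXF2. The FOXQ1 window held 5 peaks in replicate 1 and 12 in replicate 2, with 5 shared regions, and the FOXF2 window held 8, 14 and 7. The windows overlap, since the genes are neighbours, and 4 shared regions belonged to both.

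FOXQ1 was the only member with a shared region at its start. The FOXQ1 −0.2 kb region, chr6:1311910-1312393, had its summit 202 bp upstream of the start. Its fold enrichment was 4.55 and 8.07, a mean of 6.31 ± 2.49 (SD, n = 2), from 31 reads (95% Poisson interval 21.1 to 44.0) and 50 reads (37.1 to 65.9). The background predicted 6.03 and 5.23 reads, well under both. The 101 bases around the summit were 71.3% GC, which 0.514% of all shared regions matched or exceeded. The element CCAAAACAAACA lay 4 bp from the summit within that stretch, and none of the 4 cores did.

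The FOXF2 +7.5 kb region, chr6:1396818-1397587, just past the 3′ end of FOXF2, had the highest mean fold enrichment of the 14, at 13.6 ± 10.1 (SD, n = 2). That mean rested on values far apart, 6.43 in replicate 1 and 20.8 in replicate 2, a ratio of 3.23, the highest of the 14. The reads were 69 (95% Poisson interval 53.7 to 87.3) and 152 (129 to 178). After correction for depth, replicate 2 held 2.29 times the reads of replicate 1 (95% binomial interval 1.72 to 3.10). The median of this ratio over all shared regions was 1.87, inside that interval. Several others of the 14 had a higher ratio, up to 2.93 at GMDS +477.4 kb. The expected reads were 9.88 in replicate 1 and 6.27 in replicate 2, and the lower background of replicate 2 moved with its higher fold enrichment. Its core, TGTTTAT, was centred 16 bp from the summit.

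The FOXQ1 −44.6 kb region, chr6:1267252-1268054, was the third of the strong regions, with a fold enrichment of 8.005 and 14.6 and a mean of 11.3 ± 4.66 (SD, n = 2). It held 56 and 128 reads, against 6.12 and 7.74 expected, and a GTAAACA core stood 5 bp from its summit. Between FOXF2 and FOXC1, 3 shared regions lay close together at the far end of the FOXF2 window. FOXF2 +88.1 kb, chr6:1477600-1478121, had a fold enrichment of 5.17 and 10.0 (mean 7.61 ± 3.45, SD, n = 2) and carried an extended element whose last bases are also a GTAAATA core. FOXF2 +96.3 kb, chr6:1485818-1486370, reached 3.11 and 6.49 with a GTAAACA core 2 bp from the summit. FOXF2 +92.0 kb, chr6:1481598-1481991, reached 2.66 and 3.28 and was the only one of the 14 with neither a core, an extended element nor an AP-1 sequence within 50 bp.

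Inside the FOXQ1 window, 2 weaker shared regions followed the gene. FOXQ1 +10.8 kb, chr6:1322956-1323358, lay in an intron of the long non-coding RNA gene LINC01394, with 2.50 and 4.26 and an ATAAACA core at the summit itself. FOXQ1 +34.2 kb, chr6:1346298-1346833, lay between genes, with 2.80 and 7.08 and a GTAAACA core 7 bp from the summit. Both had a −log10 q under 5 in replicate 1, 2.06 and 3.22, and over it in replicate 2, 11.8 and 27.98. Among the peaks of replicate 2 alone around FOXQ1, 1 passed that limit, chr6:1251927-1252237, with a fold enrichment of 3.59, 26 reads and a −log10 q of 5.04.

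GMDS, the longest of the 4 genes, held 9 peaks of each replicate in its body and 3 shared regions, of which the FOXC1 +61.5 kb region was one. Its window had 7.30 shared regions per Mb, beside 4.28 in the genome and 5.63 on chromosome 6. The windows of FOXC1, FOXQ1 and FOXF2 had 19.6, 24.7 and 34.0. These windows overlap, and the 4 shared regions of the FOXC1 window also count in that of GMDS. GMDS +477.4 kb, chr6:1767989-1768777, had a fold enrichment of 2.38 and 5.36 (mean 3.87 ± 2.11, SD, n = 2), with a GTAAACA core 15 bp from the summit and, 40 bp from it, the sequence TGAGTCA, which the AP-1 factors bind. GMDS +3.5 kb, chr6:2242182-2242658, was the weakest of the 14, with 2.198 and 2.16, a −log10 q of 0.624 and 0.681, and summits 124 bp apart. Its mean was 2.18 ± 0.028 (SD, n = 2). From chr6:1768453 to chr6:2242335 there were 473.9 kb of GMDS without a shared region, in which replicate 1 had 3 peaks of its own and replicate 2 had 5. Of these, chr6:2167006-2167341 of replicate 2, with a fold enrichment of 4.55, 33 reads, a −log10 q of 9.04 and a GTAAACA core 24 bp from the summit, was the strongest peak of 1 replicate alone in the 4 windows. Another in replicate 2, chr6:1916809-1917439, reached 3.63 with 27 reads and a −log10 q of 5.42.

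**Figure D2:**
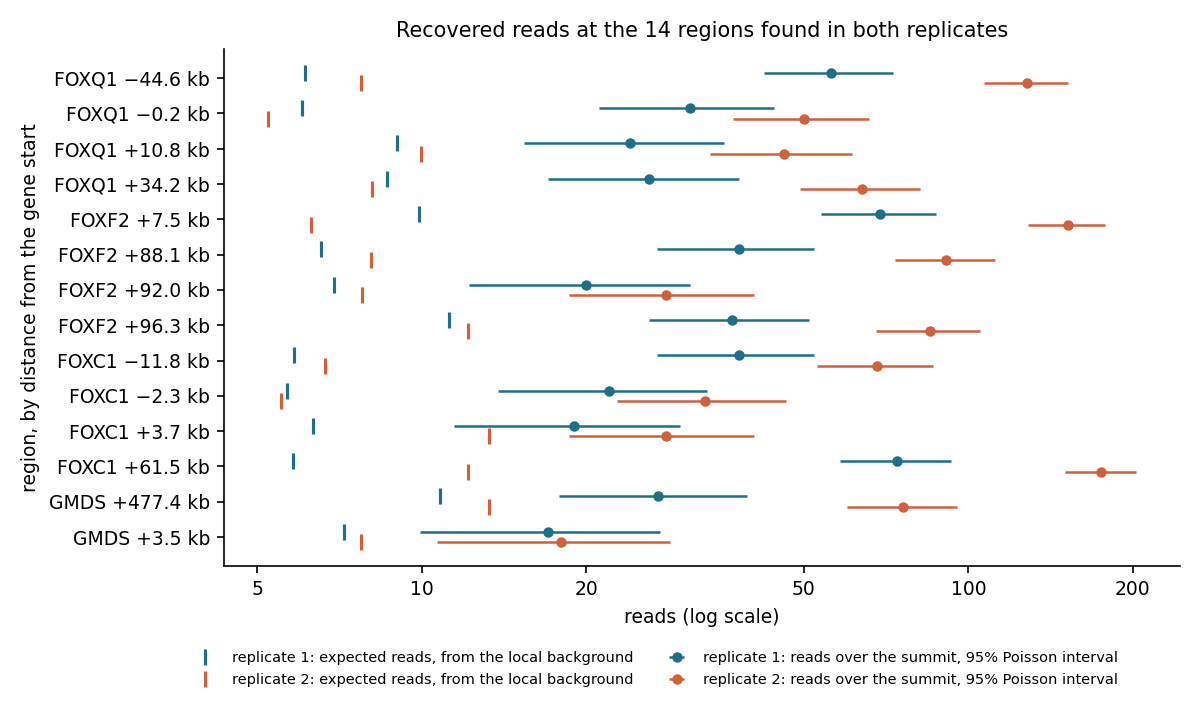
Reads over the summit are plotted on a log axis for the 14 shared regions from top to bottom along the chromosome, circles with 95% Poisson intervals for each replicate and ticks for the reads expected from the local background. Every interval lies above its tick, and the closest are FOXC1 +3.7 kb in replicate 2, with 18.6 to 40.5 reads over 13.3 expected, and GMDS +3.5 kb in both replicates, with 9.90 to 27.2 over 7.19 in replicate 1.

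Most of the shared regions carried a forkhead core close to the summit. A core stood within 50 bp of the summit in 11 of the 14 regions (78.6%), beside 48.7% of all shared regions in the genome. Measured from the point midway between the summits of the replicates, these 11 cores were all centred within 18 bp, with a median of 7 bp. The median over all shared regions with a core was 12 bp, and 67.8% had theirs within 20 bp. At GMDS +3.5 kb no core lay within 50 bp of the summit of either replicate. At FOXC1 −2.3 kb none lay within 50 bp of the summit of replicate 1. GTAAACA was found in 5 regions, GTAAATA in 4 and ATAAACA in 2, and ATAAATA in none, where the shares over all shared regions were 20.8%, 7.09%, 18.1% and 7.59%. The extended element was found in 3 of the 14, beside 7.28% of all shared regions, and in 2 of them it stood without a core. It was chosen with earlier results of these data known, so this count is no independent support for it. The AP-1 sequence TGACTCA or its other strand was found in 1 of the 14, beside 16.6%. With 14 regions of 1 locus these counts are a description of the locus, and a match in the sequence does not show that the factor touched those bases.

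In the FOXC1 window the core was found in 3 of the 4 shared regions, and around FOXQ1 and FOXF2 in 6 of 8. Among the peaks of 1 replicate alone it was found in 1 of 9 in replicate 1 and 4 of 22 in replicate 2, beside 14.8% and 33.3% of all peaks found in 1 replicate alone in those lists. The control, the same spellings written backwards, was found in 2 of the 14 regions and in 16.0% of all shared regions. ATAAATA reads the same backwards, so the control also counts that core and is not free of the cores. That core was in none of the 14 regions and in 7.59% of all shared regions. By the summits of replicate 1 the core was within 50 bp in 9 regions, beside 44.1% of all shared regions, and by those of replicate 2 in 10, beside 48.7%.

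**Figure D3:**
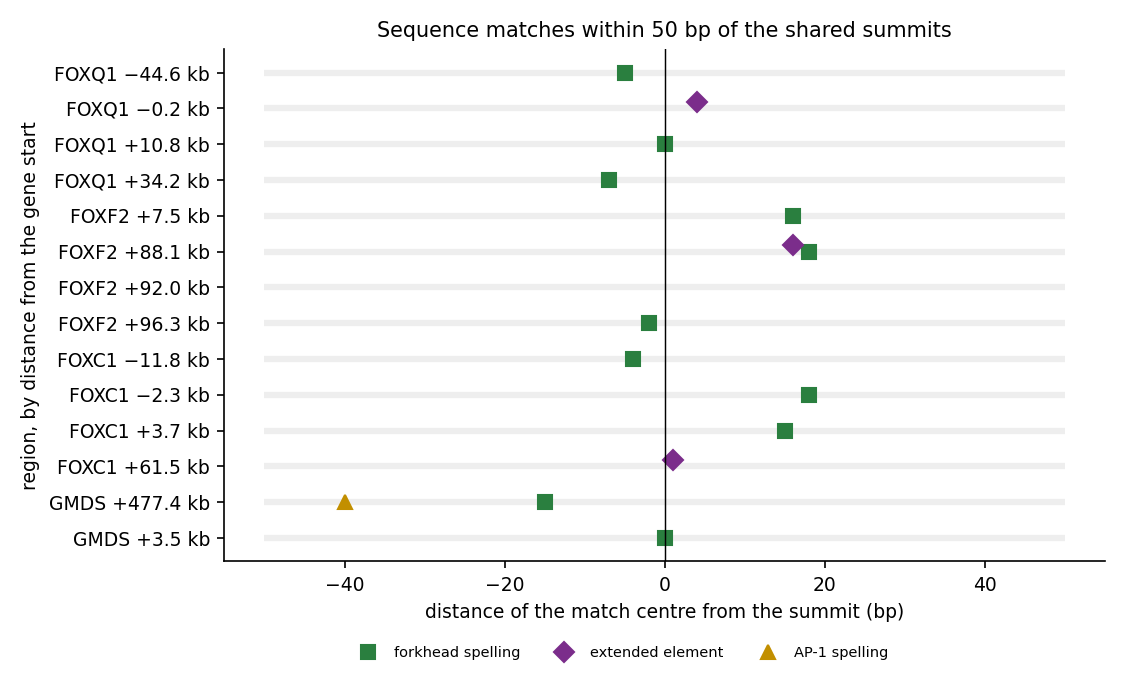
The distance in bp from the summit to the centre of each sequence match is plotted for the 14 shared regions, squares for the forkhead cores, diamonds for the extended element and a triangle for AP-1, with grey bars for the 50 bp searched on each side. The summit is the point midway between those of the replicates. The squares of 11 regions lie within 18 bp of it, and FOXF2 +92.0 kb has no match. The lone diamonds are at FOXQ1 −0.2 kb and FOXC1 +61.5 kb.

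The replicates were then set side by side. Of the replicate 1 peaks in the windows 14 (60.9%) were overlapped by a replicate 2 peak, where 59.6% of all replicate 1 peaks were, and of the replicate 2 peaks 14 (38.9%) were overlapped, where 31.7% were in the genome. Both shares were near their background. The irreproducible discovery rate (IDR) rates each region by its ranks in both replicates. It is the share of noise expected among all regions rated as reproducible or more so. Of the 14 regions, 7 had an IDR of 0.05 or less, beside 45.2% of all shared regions. The same number, 7, had a −log10 q of at least 5 in both replicates, beside 50.8%. These were FOXQ1 −44.6 kb, FOXQ1 −0.2 kb, FOXF2 +7.5 kb, FOXF2 +88.1 kb, FOXF2 +96.3 kb, FOXC1 −11.8 kb and FOXC1 +61.5 kb, and the IDR ran from 4.21e-07 at FOXC1 +61.5 kb to 0.0133 at FOXF2 +96.3 kb. The others had an IDR from 0.122 at FOXC1 −2.3 kb to 0.387 at FOXC1 +3.7 kb. Among these the IDR did not follow strength. GMDS +3.5 kb, the weakest of the 14, had 0.132, below the 0.275 of FOXQ1 +34.2 kb and the 0.380 of GMDS +477.4 kb.

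Counted by list, 7 of the 23 replicate 1 peaks had a −log10 q of at least 5, beside 30.8% of all replicate 1 peaks, and 14 of the 36 replicate 2 peaks did, beside 43.3%. The lists also hold peaks with a q-value above 0.05. A −log10 q of at least 1.3 was reached by 18 of the 23 and 27 of the 36. Of all peaks, 31.3% in replicate 1 and 14.3% in replicate 2 fell short of it. The fold enrichment was higher in replicate 2 at 12 of the 14 regions, beside 91.9% of all shared regions, and the exceptions were FOXC1 +3.7 kb and GMDS +3.5 kb. The median over the 14 was 3.28 in replicate 1 and 6.78 in replicate 2, beside 3.79 and 6.71 over all shared regions. Replicate 2 exceeded replicate 1 by a median factor of 1.74 here and 1.69 in the genome. The medians of the locus and of the genome were close, and the best placed region, FOXC1 +61.5 kb, stood among the top 6.55% by rank.

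**Figure D4:**
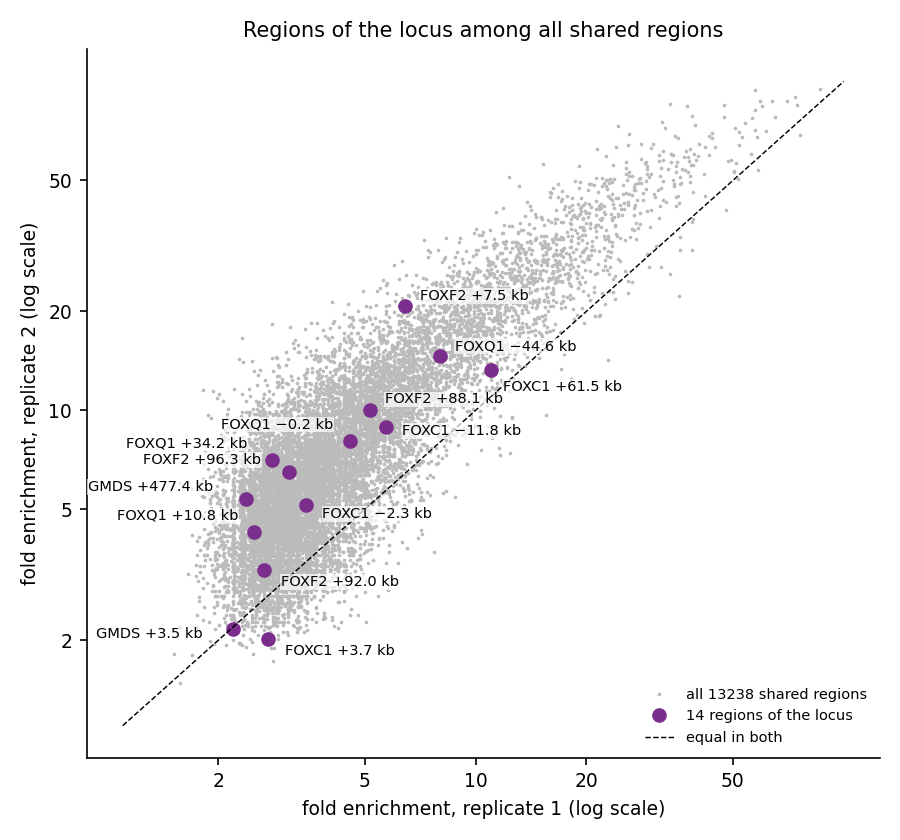
The fold enrichment of replicate 1 is plotted against that of replicate 2 on log axes for all 13238 shared regions in grey and the 14 of the locus in purple, with a dashed line where both are equal. The 14 lie within the grey cloud, 12 above the line, with FOXC1 +61.5 kb the farthest right at 11.002 and FOXF2 +7.5 kb the highest at 20.8.

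The number of peaks around each gene was compared with that around other genes in equal windows of 100 kb on each side of the start. FOXC1 had 4 shared regions by this count, and 1046 of 20162 protein-coding genes (5.19%) had as many or more. FOXQ1 had 5, a number reached by 2.41% of the genes, and FOXF2 had 7, reached by 0.575%. GMDS had 1 near its start, reached by 55.7%. The median gene had 1 shared region in such a window, and 44.3% had none. The order of the members depended on the window. Within 50 kb FOXF2 had 2 shared regions (reached by 11.2% of the genes), FOXQ1 4 (1.22%) and FOXC1 3 (3.50%). Within 200 kb FOXC1, FOXQ1 and FOXF2 each had 8 (2.19%). These genes do not count independently, since the same regions fall in the windows of neighbours.

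Local background and the neighbourhood moved with these numbers. Peaks were found at 20.6 per Mb of the windows in replicate 1 and 32.2 in replicate 2, where the genome held 7.24 and 13.5 per Mb. In the rest of the first 10 Mb of chromosome 6, outside the windows, the numbers were 14.1 and 26.8 per Mb, closer to those of the windows. The local background of the peaks in the windows had a median of 1.55 times the genome-wide level in replicate 1 and 1.86 times in replicate 2, where the medians over all peaks were 1.19 and 1.14. In replicate 1 all 23 peaks, and in replicate 2 32 of 36, had a background of at least 1.3 times that level, beside 34.3% and 40.5% of all peaks. Over the first 10 Mb of the chromosome, the windows included, the medians were 1.69 and 1.78. The background of the peaks outside the windows was not taken apart. The part of this background in the number of peaks was not tested.

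Among the 45 forkhead genes, FOXF2 had the most shared regions within 100 kb of its start, and FOXQ1 and FOXP1 followed with 5 each. FOXC1 shared the next place, at 4, with FOXD1 and FOXF1, so that 6 forkhead genes, FOXC1 among them, had 4 or more. The median forkhead gene had 1, and 15 had none. FOXF2 stood 2 regions above the next genes and the later steps were of 1 region or level, and with 2 replicates no spread of these counts could be given. The first place of FOXF2 held for the 100 kb window and not within 50 kb, where it had 2, FOXQ1 4 and FOXC1 3. By the sum of the differences in peak number over both replicates, the genes most like FOXC1, with its 8 and 9 peaks, were FOXP1 and FOXH1, each with 7 in both replicates and a difference of 3, and FOXD1, with 5 and 11 and a difference of 5. FOXF2, with 8 and 14, had the same difference of 5 and was placed after FOXD1 because its highest mean fold enrichment, 13.6 against 12.2 for FOXD1, was farther from the 12.1 of FOXC1.

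**Figure D5:**
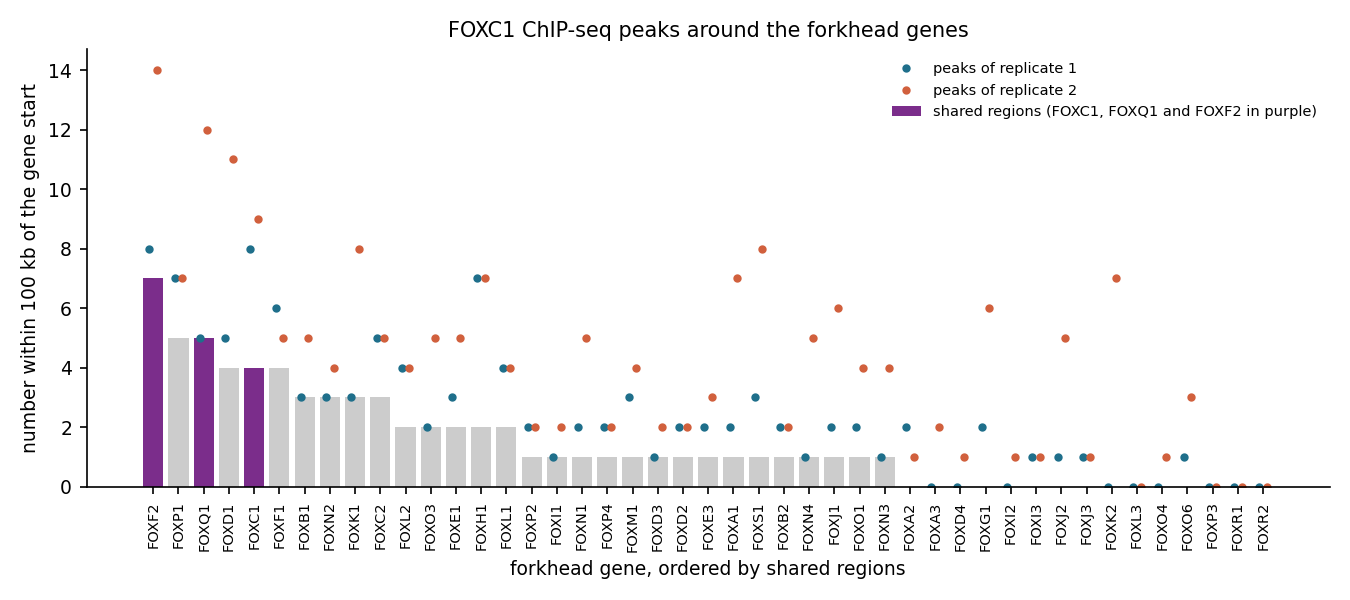
Bars give the number of shared regions within 100 kb of the start of each of the 45 forkhead genes, purple for FOXC1, FOXQ1 and FOXF2, and points give the number of peaks in each replicate. FOXF2 is first with 7, FOXQ1 has 5, FOXC1 has 4, and 15 genes have no bar.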

How the data were processed

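FOXC1 ChIP-seq was performed by the authors on J82 cells with 2 biological replicates and 2 inputs. The samples were grouped by their titles. According to the study's methods, single-end reads of 75 bp were aligned by bwa to hg19, and MACS2 2.2.7.1 set each ChIP against its input. The threshold is not given in the sources used here. The lists hold 1 replicate each. No files of the inputs were analysed.

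The score that the authors deposited is −log10 p multiplied by 10. The fold enrichment deposited by the authors is the ratio of pileup to local background at the summit, with 1 added to each. The −log10 p and −log10 q deposited by the authors compare the same values. The summit offset deposited by the authors was added to the peak start.

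Peaks on chromosomes 1 to 22, X and Y were used. Whole reads and background at each summit were recovered from the ratio and −log10 p together, to a residual under 0.001, for 100% of the peaks of both replicates. The recovery was tested on simulated data. With a genome size of 2.7 Gb and fragments of 260 and 270 bp, this gave about 43200000 and 41500000 ChIP reads. Median reads over a summit were 18 and 23. Intervals (exact Poisson for reads, exact binomial for a ratio of reads, both 95%) cover counting error only. In replicate 2 the expected reads were put on the scale of the ChIP reads.

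Peaks sharing at least 1 bp were merged into shared regions, with the summit midway. The IDR model was fitted here to all shared regions by separate code, so the calls need not match those of the study's tool. Gene positions came from GENCODE version 44 on GRCh37, while the study used version 19. Sequences were read from the GRCh37 genome. Every shared region in the windows was named, and a peak of 1 replicate alone only with −log10 q of at least 5, a summit in the body of a forkhead member or a summit within 2 kb of a member's start. The peak near FOXCUT is an exception, chosen after its values were seen. The members, lists and the extended element were chosen with earlier results of these data known. No test between groups was possible, because only the ChIP group had files, so values are set beside the same share over all peaks, regions or genes. Python 3.11.15, numpy 2.4.6, pandas 2.3.3, scipy 1.17.1 and matplotlib 3.10.9 were used.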

Additional observations from a re-analysis of the deposited data

How the results depend on the processing

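Stricter limits and narrower windows lowered the counts. With the gene bodies alone, replicate 1 had 10 peaks, replicate 2 had 11, 4 regions were shared and 1 lay in the FOXC1 gene. At a −log10 q of at least 5 the numbers were 7, 14, 7 and, in the FOXC1 window, 2. At a fold enrichment of at least 5 they were 5, 10, 5 and 2. With windows of 200 kb, FOXC1 had 8 shared regions, both around the gene body and around its start. Around the start, 2.19% of the protein-coding genes reached that number. Within 100 kb of the start, 2 shared regions had a −log10 q of at least 5 in both replicates. That number was reached by 10.5% of the genes, beside 5.19% for the count without this limit. Counting overlapping peaks once, both replicates together gave 45, and 23 to 36 remained when either was left out, the lowest without replicate 2. A forkhead core was found in 5 regions with GTAAACA alone, and the backward spellings, which include ATAAATA, in 2. The count with all 4 cores stayed at 11 within 25 bp and within 100 bp, beside 34.6% and 59.1% of all shared regions. It also stayed at 11 anywhere in the merged region, beside 75.6%. In all, 32 alternative values for the main counts and medians stayed within their limit and 18 did not. For counts the limit was a fixed ratio to the main count. For the median fold enrichment it was the SD between the replicates, which leaving out 1 replicate could hardly exceed. The backward spellings, a control, are among the 18, so this tally is no measure of robustness. Enrichment as reads per expected read, with nothing added, was higher in 14 of 14 regions, by 1.06 to 1.17 times. No paired analysis was possible because the results come from no test and only the ChIP group had files. FOXC1 +3.7 kb had 19 and 28 reads, where the medians of the lists were 18 and 23. Its −log10 q was nevertheless low, at 1.97 and 1.09, with 13.3 reads expected in replicate 2. J82 is 1 cell line with 2 replicates.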
